A study of Mus musculus with 2 samples.

Results

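The miR-378 family was examined in small RNA libraries of mouse gastrocnemius, the large muscle of the calf. Its members were taken by gene symbol from the annotation that the count tables use: Mir378a, Mir378b, Mir378c and Mir378d, together with Gm25301, the annotated gene on the other strand of Mir378a. All 5 were found among the 2202 microRNA genes of the tables. The samples were labelled as female B6CASTF1/J mice aged 36 days, F1 hybrids of the C57BL/6J and CAST/EiJ strains, with no treatment, mutation or transgene named in the labels. Their 2 libraries form 1 group, numbered replicate 2 and replicate 1 as labelled, so no conditions could be compared. The labels describe separate females, but both records share a donor identifier. Whether the libraries come from separate animals is therefore not settled, and the spread between them may be technical.

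MicroRNAs are short RNAs that are cut from hairpin precursors and guide the silencing of messenger RNAs that pair with their seed, which runs from base 2 to base 8. Mir378a lies inside Ppargc1b, which encodes a coactivator of nuclear receptors that raises mitochondrial and fatty acid oxidation genes, and microRNA and host are transcribed in the same direction. In mouse, miR-378a is abundant in skeletal muscle, heart and brown fat. Its known targets include Med13, a subunit of the Mediator complex, Crat, an enzyme that transfers acetyl groups to carnitine in mitochondria, and the myogenic repressor MyoR. The other members are named for the likeness of their mature sequences to that of miR-378a.

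The family is shown here through the members whose sequences were at hand, because their letters decide which reads could be placed at 1 gene. RefSeq (GRCm38.p6) gave the sequences of 3 of the 5 members. The mature microRNAs follow 5′ to 3′, with the seed in capitals.
miR-378b: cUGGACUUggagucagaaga
miR-378c: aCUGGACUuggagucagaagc
miR-378d: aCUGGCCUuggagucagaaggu

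miR-378b lacked the first base of miR-378c, so its seed was shifted by 1 base relative to that of miR-378c. Over the 20 positions they share, 19 were identical, and the exception was C21A (miR-378c base first, counted from 1 at its 5′ end). miR-378c and miR-378d were identical at 19 of 21 positions and differed by A6C, inside the seed, and C21G. The 3 microRNAs thus had 3 different seeds, and no other mature sequence among the 1738 in the table had any of them. The table held no sequence of miR-378a, so whether it shares a seed with them was not examined. All 3 held the stretch CUUGGAGUCAGAAG, which was found in their 3 hairpins and in no other hairpin of the 1005 in the table. The Mir378a hairpin is not among those 1005, so whether it holds the stretch was not examined.

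The hairpins are shown to place the mature sequence, in capitals, within each precursor.
Mir378b: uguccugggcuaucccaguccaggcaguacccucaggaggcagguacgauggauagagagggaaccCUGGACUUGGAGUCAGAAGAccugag
Mir378c: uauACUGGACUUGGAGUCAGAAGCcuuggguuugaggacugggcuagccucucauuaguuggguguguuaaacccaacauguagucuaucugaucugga
Mir378d: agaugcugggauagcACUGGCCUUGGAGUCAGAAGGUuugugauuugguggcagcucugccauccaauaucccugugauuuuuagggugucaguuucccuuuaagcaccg

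The mature sequence stood near the 3′ end of the Mir378b hairpin, at bases 67 to 86 of 92. It stood near the 5′ end of the others, at bases 4 to 24 of 99 in Mir378c and 16 to 37 of 110 in Mir378d. The minimum free energies computed with RNAfold were -31.1 kcal/mol for Mir378b, -27.0 kcal/mol for Mir378c and -35.0 kcal/mol for Mir378d. Per base they were weaker than the median hairpin of the table, which had -0.406 kcal/mol per base: Mir378b had -0.338, Mir378d -0.318 and Mir378c -0.273. Only 6.77% of the 1005 hairpins had a weaker value per base than Mir378c. In the predicted fold of Mir378d the mature sequence had 8 bases opening and 5 closing a pair. Whether any of these paired with each other was not examined. In Mir378b and Mir378c the 15 paired bases of the mature sequence all faced one way.

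The genes lie on 4 chromosomes and differ in their surroundings (mm10, annotation M21). Mir378a is at chromosome 18, 61397835 to 61397900, in intron 1 of Ppargc1b in each of the transcripts that span it and 2389 bases from the first exon. Mir378b, at chromosome 11, 88352773 to 88352864, lies in an intron of Msi2, which encodes an RNA-binding protein of the Musashi family. Mir378c, at chromosome 14, 46954830 to 46954928, lies in an intron of Samd4, which encodes an RNA-binding protein that represses translation. Both are on the strand opposite to the gene around them. Mir378d, at chromosome 10, 126710282 to 126710391, lies in no annotated gene. Host transcripts were not measured in these libraries.

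Mir378a accounted for nearly all reads of the family. It had 299706 reads in replicate 2 and 277206 in replicate 1, counted on the strand of the gene. These were 14.4% of the reads assigned to microRNA genes in replicate 2 (95% Wilson interval 14.37 to 14.47) and 17.4% in replicate 1 (17.33 to 17.45), with a mean of 15.9% ± 2.10 (SD, n = 2). The intervals cover counting error only, since copies made by PCR cannot be recognised. Mir378d had 198 reads in replicate 2 and 133 in replicate 1, Mir378c had 147 and 104, and Mir378b had 40 and 29. The order Mir378a, Mir378d, Mir378c, Mir378b was the same in both libraries.

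**Figure D1:**
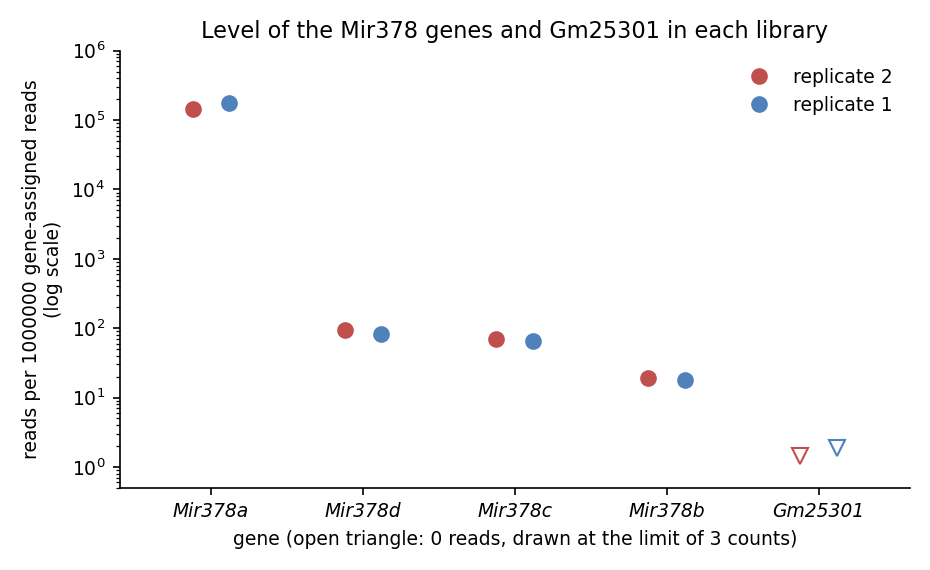
Level of each member in reads per 1000000 gene-assigned reads, on a log axis, with 1 point per library and open triangles at the limit of 3 counts for genes without a read. Mir378a stands at 144221 in replicate 2 and 173929 in replicate 1, and the other Mir378 genes lie between 18.2 and 95.3.

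As counts per 1000000 gene-assigned reads (CPM), Mir378d had 95.3 CPM in replicate 2 and 83.4 CPM in replicate 1. Mir378c had 70.7 CPM in replicate 2 and 65.3 CPM in replicate 1. Mir378b had 19.2 CPM in replicate 2 and 18.2 CPM in replicate 1. Within each gene the libraries lay close together, and no value of one of these genes overlapped with those of another. A read spans a whole mature microRNA, so these levels do not scale with gene length, but adapter ligation favours some sequences over others, which limits comparisons of level between genes.

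Mir378a exceeded Mir378d by 10.79 ± 0.33 on the log2 scale (SD, n = 2), Mir378c by 11.19 ± 0.27 and Mir378b by 13.05 ± 0.25. Mir378d exceeded Mir378c by 0.39 ± 0.05 on the same scale. The reads of these 2 genes divided with 57.4% for Mir378d in replicate 2 (Wilson interval 52.1 to 62.5) and 56.1% in replicate 1 (49.8 to 62.3). In replicate 1 that interval includes an even division, so the order of Mir378d and Mir378c was beyond counting error in replicate 2 only. Of the reads counted at Mir378b and Mir378c, 78.6% were counted at Mir378c in replicate 2 (72.2 to 83.9). In replicate 1 the value was 78.2% (70.4 to 84.4), and both lay above an even division. Whether some reads counted at Mir378b, Mir378c or Mir378d came from another member was not examined. This includes the far more abundant Mir378a, whose sequence was not at hand. Their levels and order are therefore those of counts.

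The reads of the 3 smaller members divided in nearly the same way in both libraries. Mir378d had 198 of the 385 reads in replicate 2 (Wilson interval 46.4% to 56.4%) and 133 of the 266 in replicate 1 (44.0% to 56.0%). Mir378c had 38.2% in replicate 2 and 39.1% in replicate 1, and Mir378b had 10.4% and 10.9%. Each pair of intervals overlapped. Against Mir378a the proportion differed: Mir378b, Mir378c and Mir378d together made up 0.128% of member reads in replicate 2 (0.116 to 0.142) and 0.0959% in replicate 1 (0.0850 to 0.108). Those intervals did not overlap, but they cover counting error only. An exact binomial test on counting error, given below, called 63.0% of all 273 genes tested between these libraries. A separation of this kind is therefore not particular to these genes. The ratio within a library does not depend on how the libraries are scaled.

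These counts hold only reads placed at 1 locus. Reads with several matching places, 77.6% of the library in replicate 2 and 75.4% in replicate 1, were left out of all gene counts. At full length and without mismatch, none of the 3 mature sequences shown above was found in another hairpin of the table. With 1 mismatch allowed at full length, miR-378b matched the Mir378c hairpin, and miR-378c and miR-378d matched none. With 1 base removed at the 3′ end, miR-378b matched the Mir378c hairpin exactly, and it continued to do so with 2 to 5 bases removed. Without mismatch, miR-378c and miR-378d did not match another hairpin of the table when shortened by up to 5 bases. With 1 mismatch, miR-378c shortened by 1 base matched the Mir378b and Mir378d hairpins, and miR-378d shortened by 2 matched that of Mir378c. The table held no Mir378a hairpin, so a match to it could not have been seen. Of all 1738 mature sequences, 7.08% were held by the hairpin of another gene at full length and 8.63% with 5 bases removed. Of the windows of 18 bases in a hairpin, 2 of 75 in Mir378b and 2 of 82 in Mir378c were found in another hairpin, and 0 of 93 in Mir378d. No window of 20 or 22 bases was. The sequences of Mir378a and Gm25301 were not analysed here, and the comparison did not cover the rest of the genome.

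Mir378a and Gm25301 were told apart by strand alone. Gm25301 is annotated at chromosome 18, 61397813 to 61397925, on the strand opposite to Mir378a and Ppargc1b. Its 113 bases contain all 66 bases of Mir378a, with 22 bases beyond it on one side and 25 on the other. Gm25301 had 0 reads on its own strand in both libraries, which allows up to 1.44 CPM in replicate 2 and 1.88 CPM in replicate 1. Mir378a had 0 reads on its opposite strand. On the opposite strand of Gm25301 the tables list 299706 reads in replicate 2 and 277206 in replicate 1, exactly the numbers of Mir378a, so the same reads appear at both genes.

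When strand was disregarded, both genes were listed at 0 in both libraries, since a read that lies in overlapping genes is then set aside as ambiguous. Mir378b, Mir378c and Mir378d have no microRNA gene on the other strand. Their counts without regard to strand were the same as on their own strand, and they had 0 reads on the opposite strand. The reads set aside as ambiguous numbered 600542 in replicate 2 and 508697 in replicate 1, and Mir378a alone was equivalent to 49.9% and 54.5% of them.

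**Figure D2:**
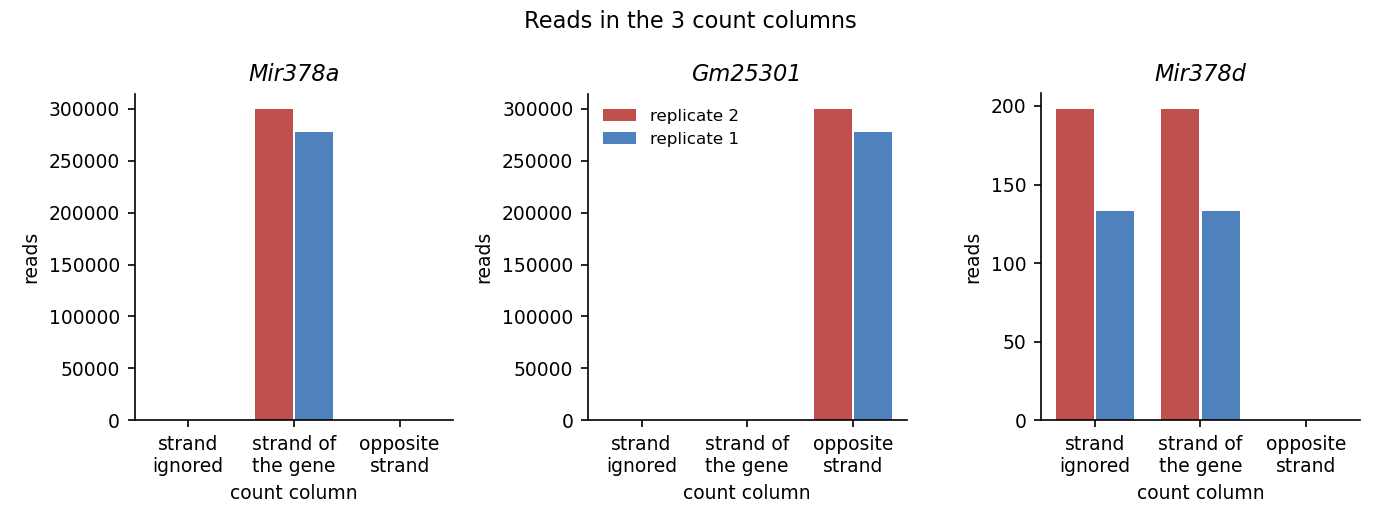
Reads in the 3 count columns for Mir378a, Gm25301 and Mir378d, with bars for replicate 2 left of those for replicate 1 and a separate linear axis from 0 in each panel. The bars of Mir378a stand in the column of the strand of the gene, those of Gm25301 in the column of the opposite strand, and those of Mir378d are equal with strand and without.

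Of the 2202 genes, 64 had a microRNA gene on the other strand. In replicate 2, 31 of them had reads on their own strand and 30 of these were listed at 0 without strand. In replicate 1 the numbers were 34 and 33. After Mir378a, the highest were the endothelial Mir126a, opposite Mir126b, the erythroid Mir451a, opposite Mir451b, and Mir30e, opposite Mir30f. Mir126a had 233890 reads in replicate 2 and 140627 in replicate 1 on its own strand, and 1 in each without strand. Mir451a had 17377 and 55120 reads on its own strand and Mir30e had 15125 and 12066, and both were listed at 0 without strand. The zeros of Mir378a without strand were therefore shared with most such genes that had reads.

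Among reads placed at 1 locus, Mir378a had the highest count in both libraries. The ranking does not cover reads with several matching places, which are in no gene count. In replicate 2 the next gene was Mir126a with 11.3%, against the 14.4% of Mir378a. In replicate 1 it was Mir143, which is known from smooth muscle, with 11.8%, against 17.4%. Mir378a had 1.28 times the reads of Mir126a in replicate 2 and 1.97 times in replicate 1. It had 2.36 times the reads of Mir143 in replicate 2 and 1.47 times in replicate 1. Its lowest share lay above the highest share of any other gene. By reads per base of the annotated gene, a measure chosen after the counts were seen, Mir378a also ranked 1.

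**Figure D3:**
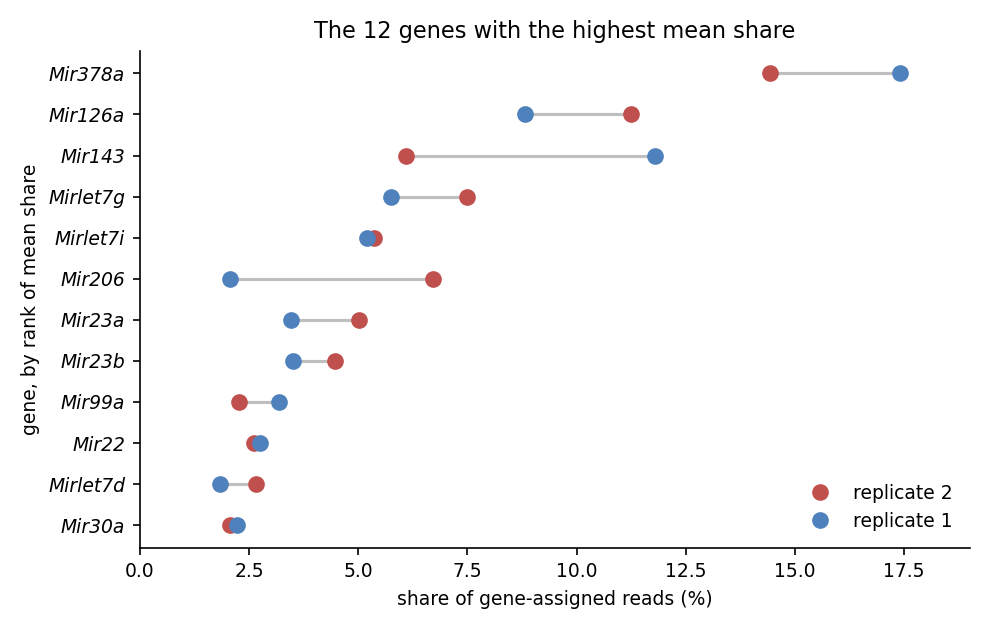
Share of gene-assigned reads, in percent, of the 12 genes with the highest mean share, with 1 point per library joined by a line. Both points of Mir378a, 14.4% in replicate 2 and 17.4% in replicate 1, lie to the right of those of every other gene.

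The other members stood far down the order. Mir378d ranked 162 in replicate 2 and 167 in replicate 1, Mir378c ranked 182 and 180, and Mir378b ranked 230 and 240. They remained among the 273 genes with at least 10 reads in both libraries, the minimum set for a test between them. Of the 5 members, 4 passed this minimum and Gm25301 did not. The neighbours of Mir378d by mean level were Mir421 with 189 reads in replicate 2 and 140 in replicate 1, and Mir138-1 with 96 and 211. Mir378b stood between Mir323, with 39 and 30 reads, and Mir199a-2, with 37 and 30. The counts of Mir378b, Mir323 and Mir199a-2 are too close to order these 3 genes, whereas Mir138-1 lay below Mir378d in replicate 2 and above it in replicate 1.

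The libraries were compared gene by gene with an exact binomial test on reads, scaled by TMM factors and adjusted by Benjamini-Hochberg over all 273 genes. It compares these 2 libraries and not conditions, and takes no account of spread between replicates. It called 63.0% of all genes tested, 33.3% as higher and 29.7% as lower in replicate 2. Against this background, 1 of the 4 tested members was called. Mir378a was lower in replicate 2, with a ratio of 0.869 to replicate 1 (95% counting interval 0.864 to 0.873, log2 ratio -0.20). That is 1.15-fold (1.15 to 1.16), and with edgeR's exact test at the dispersion common to all genes it did not pass (adjusted p = 1). That dispersion was estimated from these same libraries.

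The other Mir378 genes did not pass the binomial test. Mir378d had a ratio of replicate 2 to replicate 1 of 1.20 (0.955 to 1.501, adjusted p = 0.178, exact binomial test). Mir378c had a ratio of 1.14 (0.877 to 1.47, adjusted p = 0.443, exact binomial test). Mir378b had a ratio of 1.11 (0.670 to 1.85, adjusted p = 0.809, exact binomial test). At this depth their intervals reach from below 1 to between 1.47 and 1.85, so no difference between the libraries was detectable. The interval of Mir378b included the ratio of Mir378a, whereas those of Mir378c and Mir378d began above it. The absolute log2 ratio of Mir378a, 0.20, was smaller than that of 69.2% of the tested genes, whose median was 0.36.

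**Figure D4:**
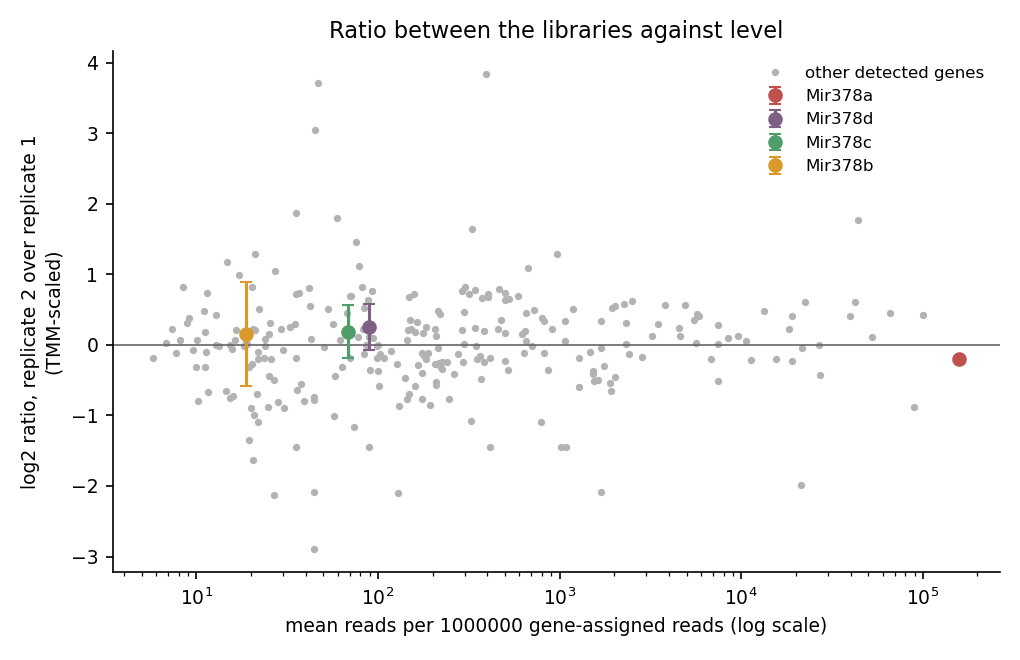
TMM-scaled log2 ratio of replicate 2 over replicate 1 against mean level in reads per 1000000 gene-assigned reads (log axis) for the 273 tested genes, with 95% counting intervals drawn for the Mir378 genes. Mir378a lies just below 0 at the highest level, and the intervals of Mir378b, Mir378c and Mir378d include 0.

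Among the other 62 genes with a mean of at least 1000 CPM, the 5 whose log2 ratio was closest to that of Mir378a over the 2 libraries were Mir196b, Mir411, Mir30d, Mir652 and Mir10b. Mir196b, from a Hox cluster, had 6208 CPM in replicate 2 and 7457 CPM in replicate 1, and its log2 ratio differed from that of Mir378a by 0.0056. Mir411, from the imprinted cluster on chromosome 12, had 14103 CPM and 16940 CPM, a difference of 0.0057. Mir30d, Mir652 and Mir10b differed by 0.0099, 0.011 and 0.023. With 2 libraries such closeness describes 1 ratio.

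The muscle genes did not move together, and the highest of them, Mir206, moved differently from Mir378a. There were 2.15 reads of Mir378a per read of Mir206 in replicate 2 and 8.43 in replicate 1. Mir206 itself had 139295 reads in replicate 2 and 32871 in replicate 1. Its TMM-scaled ratio of replicate 2 to replicate 1 was 3.40 (3.36 to 3.45). Of the 7 skeletal muscle genes tested, Mir206, Mir499, Mir486 and Mir1a-2 were called higher in replicate 2 and 3 did not pass. Over all 273 tested genes, 33.3% were called higher and 29.7% lower. Whether the muscle list differs from genes in general was not tested. For Mir499, which lies in an intron of the myosin gene Myh7b, 1527 reads were counted in replicate 2 against 86 in replicate 1. Its TMM-scaled ratio was 14.3 (11.5 to 17.9). Mir499 also passed edgeR's exact test with the common dispersion, whereas Mir206 did not. That dispersion was estimated from the same 2 libraries that it compares, so this outcome is not separate evidence for either gene. Mir208b, an intronic microRNA of slow myosin Myh7, was counted 889 times in replicate 2 against 5 in replicate 1 and was under the minimum for testing. The ratios of Mir486 and Mir1a-2 were 1.26 (1.18 to 1.34) and 1.14 (1.03 to 1.27). Those of Mir133b, Mir133a-1 and Mir1a-1, which did not pass, were 1.05 (0.612 to 1.82), 0.735 (0.475 to 1.14) and 0.603 (0.340 to 1.06). These 3 ratios rest on 24 to 47 reads per library placed at 1 gene, and each interval includes 1. What part these differences have in the ratio of Mir378a was not tested.

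A list of 26 microRNAs linked to mitochondrial, lipid or glucose metabolism held 20.9% of reads in replicate 2 and 22.2% in replicate 1. Mir378a made up most of it, and without Mir378a the list held 6.50% and 4.83%. Of its 25 genes found in the tables, 19 were tested, of which 7 were called higher in replicate 2, 6 lower (Mir378a among them) and 6 did not pass, with a median log2 ratio of 0.05. Over all 273 tested genes the counts were 91, 81 and 101 and the median was 0.02. The next highest members were Mir23a, with 104293 reads in replicate 2 and 55050 in replicate 1, and Mir27b, which in mouse acts on the myogenic factor Pax3, with 10032 and 6855. Mir149 followed with 9298 and 5027. Their TMM-scaled ratios of replicate 2 to replicate 1 were 1.52 (1.51 to 1.54), 1.18 (1.14 to 1.21) and 1.49 (1.44 to 1.54), all called higher.

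Like Mir378a, a few genes of that list lie in introns of metabolic genes, and they were far lower in count. Mir107, in Pank1, a kinase gene of coenzyme A synthesis, had 1237 reads in replicate 2 and 642 in replicate 1, and was called higher with a TMM-scaled ratio of 1.55 (1.41 to 1.71). Mir103-2, in Pank2, had 18 and 23 reads, and Mir103-1, in Pank3, had 4 and 3. Mir33, in the sterol regulator gene Srebf2, had 5 and 13 reads. Mir103-1 and Mir103-2 give the same mature microRNA, so reads of it that match both are in neither count.

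The tissue label was checked with marker lists, for which shares of gene-assigned reads are given for replicate 2 and then replicate 1. Skeletal muscle genes held 6.98% and 2.21%, of which Mir206 alone held 6.70% and 2.06%, and all 10 genes found had reads. Reads with several matching places are in none of these shares. How many of them came from Mir1a-1, Mir1a-2, Mir133a-1 or Mir133a-2 is not known, so the muscle share may be incomplete. This limits its comparison with the other lists. Among markers of other cells, endothelium held 11.3% and 8.86%, smooth muscle 6.25% and 12.03%, and the erythroid genes 0.898% and 3.73%. Genes of brown and white fat, where miR-378a is also known, held 0.205% and 0.223%. Most of that was Mir196a-2 alone, with 0.163% and 0.176%. The next highest fat genes were Mir455, with 0.0192% and 0.0247%, and Mir193b, with 0.0213% and 0.0205%. Leukocyte genes (Mir155, Mir150, Mir142 and Mir223) held 0.209% and 0.142%, and the liver gene Mir122 0.0167% and 0.0201%. The heart gene Mir208a had 15 reads in replicate 2 and 1 in replicate 1. Every marker gene found in the tables had a read in at least 1 library. Both smooth muscle genes and both erythroid genes were called lower in replicate 2, as was Mir378a, and so were 29.7% of all 273 tested genes. Of the tested leukocyte genes, 2 were called higher and 2 lower. Among the endothelial genes 1 was called higher and 2 did not pass, and among the fat genes 1 was called lower and 2 did not pass. What part any of these have in the ratio of Mir378a was not tested. In bulk tissue, fewer cells of a type and less microRNA per cell cannot be told apart.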

How the data were processed

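Small RNA libraries from total RNA, with inserts under 30 nucleotides per the labels, were counted by the authors per microRNA gene. The deposited tables hold raw counts for mm10 and annotation M21, per the deposited read-me text. Aligner and counter were not given in the sources used here. The 3 columns, without header, were read from their layout and values as counts without regard to strand, on the strand of the gene (used here) and on the opposite strand. Library sizes left out the 4 summary rows. Gene-assigned reads numbered 2078101 of 14072830 in replicate 2 and 1593787 of 9538917 in replicate 1. All 2202 identifiers matched M21.

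CPM, shares with Wilson intervals, and two-sided exact binomial tests with TMM-scaled sizes (edgeR 4.0.16, R 4.3.3, factors from genes with at least 10 reads in both libraries, adjusted p threshold 0.05) were computed. The binomial test was tested on simulated counts without spread between libraries beyond counting error. That simulation therefore cannot show how the test behaves where such spread is present. DESeq2 1.42.0 gave other size factors. A count of 0 allows 3 counts. Hairpins were folded with RNAfold 2.7.2. Tables and plots were made with pandas 2.3.3, scipy 1.17.1, numpy 2.4.6 and matplotlib 3.10.9 in Python 3.11.15. The members and the 9 lists (59 entries, 55 matched) were chosen with earlier results of these data known. Named genes were the members, the 2 genes next in rank, the 5 nearest in ratio, up to 4 of the highest genes of each list, the metabolic host introns and the 3 highest genes with an opposite gene; others were named after their values were seen.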

Additional observations from a re-analysis of the deposited data

Results flagged for a closer look

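Signal lay outside the counts used for the members, above the limit of 3 counts. Summary rows of the tables list 10919725 reads with several matching places in replicate 2 and 7195252 in replicate 1, and the tables do not say how many of them came from the Mir378 genes. Uniquely placed reads outside microRNA genes numbered 232773 in replicate 2 and 142257 in replicate 1. The group has 2 libraries, too few to ask whether one stands apart.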

How the results depend on the processing

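The choice of count column decided whether Mir378a was seen. Its mean share of 15.9% became 0% without regard to strand and 0% on the opposite strand. Its rank became 534 and 55, which are the ranks shared by all genes with 0 reads in the respective column. The share of all members became 0.0253% without strand and 52.2% on the opposite strand, where Gm25301 lists the reads of Mir378a. That of Mir378b, Mir378c and Mir378d together, 0.0176%, became 0.0253% and 0%, and 0.0209% with Mir378a left out of the total. With reads matching several places added to the total, the shares were 2.73% for Mir378a, 0.00299% for those 3 genes and 2.73% for all members. Over all reads of the library they were 2.52%, 0.00276% and 2.52%. Leaving out either replicate gave 14.4% to 17.4% for Mir378a, 0.0167% to 0.0185% for the 3 genes and 14.4% to 17.4% for all members, and the rank stayed 1. The log2 ratio of Mir378a lay between -0.28 and -0.20 under the 5 scalings and was called lower in each, as well as without a read filter and with a minimum of 50 reads. Under the exact test of edgeR with the common dispersion, the log2 ratio of -0.20 did not pass, and 4 genes passed in place of 172. For Mir378b, Mir378c and Mir378d neither the sign nor the call changed under any of these for which they were tested. Mir378b was under the minimum of 50 reads. A ratio between the libraries cannot be had without either replicate. No paired analysis was possible because the design has 1 group. Depth limits the smaller members, whose counts of 29 to 198 reads leave wide intervals.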
